A study of Mus musculus with 15 samples.

Results

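The 10 transporters described here carry glucose, lactate and amino acids across the plasma membrane of CD8+ T cells. They were taken by gene symbol from the tables of normalised mRNA levels, and all 10 were found among the 11262 genes of the table of naive and 24 h activated cells and among the 11211 genes of the table of cytotoxic T lymphocytes (CTL). Values are FPKM, fragments scaled to exon length and library size, so levels can be set side by side between genes as well as between libraries.

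All 15 libraries came from T cells of LCMV-P14 mice, whose CD8+ T cells carry 1 transgenic T cell receptor (TCR) for the gp33-41 peptide of lymphocytic choriomeningitis virus. Naive cells were sorted ex vivo from lymph nodes as live cells with the TCR beta chain and CD8, high CD62L and low CD44. TCR cells had been stimulated over 24 h by gp33-41 (100 ng/ml) in the presence of interleukin-2 (IL-2, 20 ng/ml), interleukin-12 (2 ng/ml) and DMSO as vehicle, and the PI3Kdi group had in addition 10 µM IC87114, an inhibitor of the p110 delta catalytic subunit of phosphoinositide 3-kinase. TCR and PI3Kdi cells were sorted as live CD8+ cells. Each of their 3 replicates was a pool of cells from 3 female mice aged 9 to 13 weeks that was divided between the 3 conditions. CTL were activated for 48 h, cultured for 4 more days in 20 ng/ml IL-2, washed on day 6, and then kept for 24 h with 20 ng/ml IL-2 or without it, with 3 replicates each. The treatment labels of replicates 2 and 3 of the CTL with IL-2 read IL3 and IL4, and these libraries were grouped by their titles. The age and sex of the mice behind the CTL were not given in the sources used here.

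T cells that leave quiescence take up more glucose and amino acids, which feed glycolysis, protein synthesis and the kinase mTORC1, and they export the lactate that glycolysis makes. Slc2a1 and Slc2a3 encode the facilitative glucose carriers GLUT1 and GLUT3. Slc7a5 encodes the light chain, and Slc3a2 the heavy chain, of system L, which exchanges glutamine for leucine and other large neutral amino acids. Slc1a5 (ASCT2) and Slc1a4 (ASCT1) are sodium-dependent exchangers of small neutral amino acids, and Slc38a1 and Slc38a2 (SNAT1 and SNAT2) are sodium-coupled carriers of glutamine and alanine. Slc16a1 and Slc16a3 encode the proton-coupled monocarboxylate carriers MCT1 and MCT4, the latter known as a lactate exporter of strongly glycolytic cells.

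The CD8 T cell markers Cd8a, Cd8b1, Cd3d, Cd3e, Cd3g and Cd247 were all in both tables, at summed levels of 3287 to 3585 FPKM in naive cells, 671 to 725 in TCR cells, 851 to 995 with PI3Kdi, 1033 to 1093 in CTL with IL-2 and 1935 to 2140 in CTL without it. None of 5 erythroid markers was in either table. Values are relative to the mRNA of a library, so less of an mRNA per cell and fewer cells that express it cannot be told apart.

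Which transporter mRNAs depend on IL-2 in CTL was asked by comparing CTL kept for 24 h without IL-2 with CTL kept in it. In limma, 7 of the 10 transporters were lower without IL-2 and 0 were higher, where 13.9% of all genes tested were called lower and 14.3% higher. A gene is called where its adjusted p is under 0.05 and its fold change above 2 or below 0.5. The 7 were the system L pair Slc7a5 and Slc3a2, the exchangers Slc1a5 and Slc1a4, the glucose carrier Slc2a1 and both lactate carriers, Slc16a1 and Slc16a3. Slc38a1 and Slc38a2 passed the p limit but not the fold limit, and Slc2a3 passed neither. For 9 of the 10, every library without IL-2 was below every library with it, which held for 38.5% of all genes tested. Summed over the 10 genes, the levels were 629, 669.5 and 774 FPKM with IL-2 and 268, 279.7 and 259 FPKM without it. The median log2 fold change of the 10 was -1.37, against -0.0009 over all genes of the table. The plot of CTL levels shows each library.

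**Figure D1:**
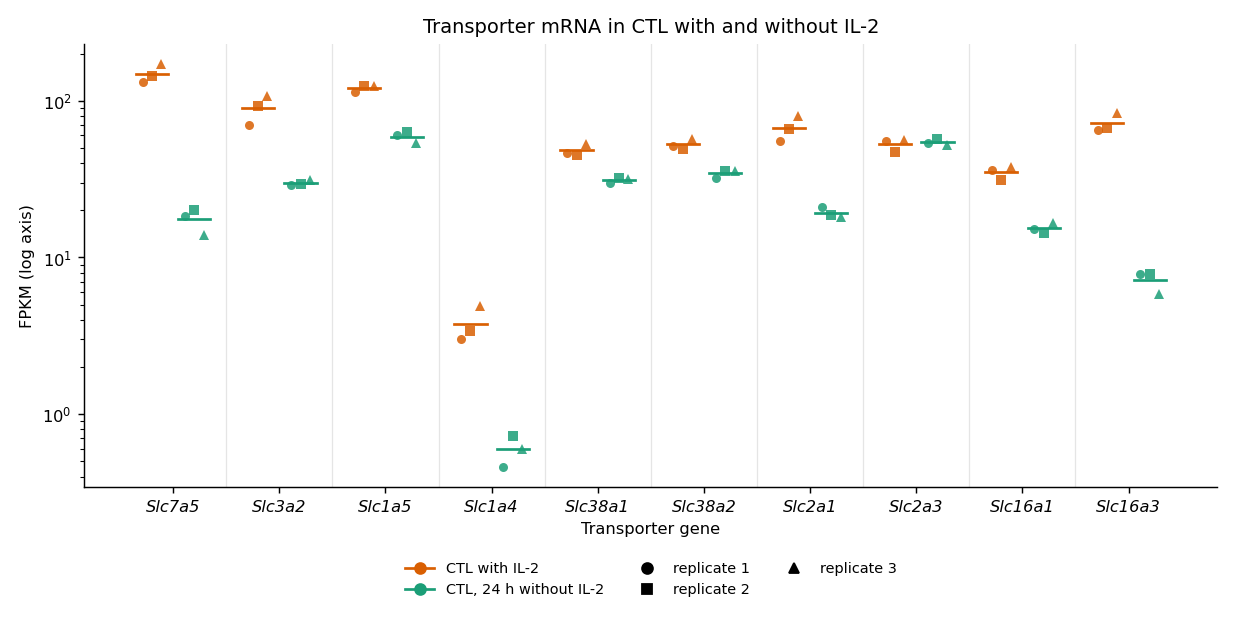
Level of each of the 10 transporter mRNAs in FPKM, on a log axis, in the 3 libraries of CTL with IL-2 and the 3 of CTL kept for 24 h without it. Points are libraries, their shape gives the replicate and lines give group means. The groups overlap for Slc2a3 and are apart for the 9 other genes.

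Some markers of other cells moved with IL-2 withdrawal too. Of 4 B cell markers only Cd79b was in the CTL table, at 2.74 to 6.30 FPKM with IL-2 and 10.8 to 20.6 FPKM without it. Of 5 macrophage and dendritic cell markers, Lyz2, Csf1r and Adgre1 were not in the table, and the sum of the other two was 5.28 to 9.43 FPKM with IL-2 and 9.74 to 17.2 FPKM without. Itgax was called higher, at 0.21 to 0.39 FPKM with IL-2 and 3.67 to 5.17 FPKM without, whereas Cd68 was not called and overlapped, at 5.07 to 9.04 FPKM and 6.07 to 12.43 FPKM. The stromal marker Pdgfrb was called higher, at 0.20 to 0.70 FPKM and 1.12 to 1.44 FPKM. Cd4 was at 0.05 to 0.39 FPKM with IL-2 and at 0.92 to 1.92 FPKM without. The part of these cells in the transporter values was not tested.

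System L showed one of the widest gaps. Slc7a5 (Entrez 20539, chr8:121881146-121907686, minus strand of GRCm38/mm10) was at 132.33, 143.65 and 171.20 FPKM in CTL with IL-2 and at 18.26, 20.22 and 13.92 FPKM without it. Every library without IL-2 lay far below every library with it, and the mean without IL-2 was 11.7% of that with it. On the log2 scale the change was -3.09 (standard error, SE, 0.14, adjusted p = 3.0e-07 in limma). Slc3a2 (Entrez 17254, chr19:8706882-8723369, minus strand), whose protein brings the light chain to the membrane, was at 70.49, 93.13 and 106.78 FPKM with IL-2 and at 29.08, 29.52 and 31.11 FPKM without. Its libraries without IL-2 varied little, with a coefficient of variation of 3.57%, and those with IL-2 by 20.3%. The log2 fold change was -1.57 (SE 0.13, adjusted p = 6.5e-06 in limma).

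The light chain therefore fell further than its partner. With IL-2 the ratio of Slc7a5 to Slc3a2 mRNA within a library was 1.88, 1.54 and 1.60, and without it 0.628, 0.685 and 0.447. So the light chain mRNA was the more abundant of the pair in all 3 libraries with IL-2 and the less abundant in all 3 without. The log2 ratio differed by -1.53 between the groups, and an exact two-sided permutation test gave p = 0.1, which is the smallest p that 3 against 3 libraries allow (0.125 after Benjamini-Hochberg adjustment over the 5 pairs of related transporters).

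The exchangers of small neutral amino acids were both lower without IL-2, Slc1a4 by more than Slc1a5. Slc1a5 (Entrez 20514, chr7:16781334-16798274, plus strand) was at 113.44, 124.16 and 123.89 FPKM with IL-2 and at 60.39, 63.22 and 53.69 FPKM without. Its log2 fold change of -1.03 (SE 0.085, adjusted p = 4.9e-06 in limma) lay just past the fold limit, and without replicate 3 it was -0.94 and no longer called. Median scaling of the libraries also ended its call. Slc1a4 (Entrez 55963, chr11:20302180-20332713, minus strand) was the least abundant of the 10, at 3.00, 3.41 and 4.91 FPKM with IL-2 and 0.46, 0.73 and 0.60 FPKM without. All 3 libraries without IL-2 were below 1 FPKM, and the log2 fold change was -2.46 (SE 0.23, adjusted p = 1.1e-05 in limma). With a pseudocount of 1 in place of 0.1 it was -1.56, still called. The ratio of Slc1a5 to Slc1a4 was 37.8, 36.4 and 25.2 with IL-2 and 131, 86.6 and 89.5 without (exact permutation p = 0.1, adjusted 0.125). The log2 ratio differed by 1.62 between the groups, and by 0.55 with a pseudocount of 1.

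The SNAT carriers moved least among the genes that were lower. Slc38a1 (Entrez 105727, chr15:96571418-96643438, minus strand) was at 46.67, 45.35 and 52.99 FPKM with IL-2 and at 30.06, 32.31 and 31.58 FPKM without. Slc38a2 (Entrez 67760, chr15:96687392-96699728, minus strand), which lies next to it on the chromosome, was at 51.44, 49.19 and 57.29 FPKM with IL-2 and 32.35, 35.54 and 35.52 FPKM without. In both genes the 2 groups did not overlap, and their log2 fold changes were -0.62 (SE 0.084) and -0.61 (SE 0.085). Both passed the p limit in limma (adjusted p = 0.00012 for Slc38a1 and 0.00015 for Slc38a2) but not the fold limit. The ratio of Slc38a1 to Slc38a2 was 0.907 to 0.925 in CTL with IL-2 and 0.889 to 0.929 in CTL without, the only one of the 5 ratios whose groups overlapped (exact permutation p = 0.7).

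The glucose carriers parted. Slc2a1 (Entrez 20525, chr4:119108745-119137330, plus strand) was at 55.58, 66.03 and 80.08 FPKM with IL-2 and at 20.91, 18.74 and 18.03 FPKM without, with a log2 fold change of -1.79 (SE 0.13, adjusted p = 2.3e-06 in limma). Slc2a3 (Entrez 20527, chr6:122727809-122802363, minus strand) was at 55.64, 46.82 and 55.76 FPKM with IL-2 and at 53.84, 57.27 and 52.18 FPKM without. These 6 libraries were interleaved, and the log2 fold change was 0.05 with a 95% interval of -0.15 to 0.25 (adjusted p = 0.64 in limma). The ratio of Slc2a1 to Slc2a3 was 0.999, 1.41 and 1.44 with IL-2 and 0.388, 0.327 and 0.346 without. Slc2a3 was thus the more abundant glucose carrier mRNA in all 3 libraries without IL-2, while the pair was near equal or led by Slc2a1 with IL-2 (exact permutation p = 0.1, adjusted 0.125).

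Slc16a3 (Entrez 80879, chr11:120948484-120959000, plus strand) changed by the most of the 10. It was at 64.65, 66.76 and 83.62 FPKM with IL-2 and at 7.88, 7.79 and 5.85 FPKM without. The mean without IL-2 was 10.0% of that with it, and the log2 fold change was -3.31 (SE 0.14, adjusted p = 2.1e-07 in limma). Slc16a1 (Entrez 20501, chr3:104638664-104658462, plus strand) was at 36.03, 31.04 and 37.80 FPKM with IL-2 and at 15.21, 14.40 and 16.53 FPKM without, with a log2 fold change of -1.18 (SE 0.10, adjusted p = 6.0e-06 in limma). MCT4 mRNA was the higher of the pair in all 3 libraries with IL-2, where the ratio of Slc16a1 to Slc16a3 was 0.557, 0.465 and 0.452. MCT1 mRNA was the higher in all 3 libraries without, at ratios of 1.93, 1.85 and 2.83 (exact permutation p = 0.1, adjusted 0.125).

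The stretches before the start of the lactate carrier genes are shown because MCT4 mRNA led the pair with IL-2 and MCT1 mRNA without it. They are from RefSeq on GRCm38.p6, plus strand, at chr3:104638414-104638663 for Slc16a1 and chr11:120948817-120949052 for Slc16a3. The last bases before the Slc16a3 start are left out because GENCODE places them in an exon. The Slc16a3 window lies within the gene as GENCODE draws it, whose first exon starts further upstream. Capitals mark CACGTG, the E-box read by MYC with MAX, or ACGTG or GCGTG, the spellings of the core of the hypoxia response element, on either strand. Every CACGTG also holds ACGTG.
Slc16a1: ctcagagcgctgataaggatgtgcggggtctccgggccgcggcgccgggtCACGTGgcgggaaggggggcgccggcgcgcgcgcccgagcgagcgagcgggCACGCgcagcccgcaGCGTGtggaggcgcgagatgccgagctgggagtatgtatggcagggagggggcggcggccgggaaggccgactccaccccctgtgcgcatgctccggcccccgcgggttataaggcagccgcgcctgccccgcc
Slc16a3: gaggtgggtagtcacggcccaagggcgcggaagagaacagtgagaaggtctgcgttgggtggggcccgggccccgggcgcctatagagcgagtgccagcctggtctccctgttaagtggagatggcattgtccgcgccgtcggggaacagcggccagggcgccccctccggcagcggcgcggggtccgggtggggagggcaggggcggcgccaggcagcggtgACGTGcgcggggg
Both strands were searched over the 250 bases before the start. CACGTG occurred 1 time in the Slc16a1 window and 0 times in that of Slc16a3, and 6.02% of 32851 windows of the same length held it. ACGTG outside a CACGTG occurred 2 times in the Slc16a3 window, of which the first is shown, and 16.6% of all windows held ACGTG. The windows of Slc2a1 and Slc3a2 held ACGTG 1 time each. GCGTG, which 28.2% of all windows held, occurred 2 times in the windows of Slc16a1 and Slc1a4, 1 time in that of Slc2a1 and 0 times in those of Slc16a3, Slc3a2 and Slc38a2. TGATGNAA, the response element read by ATF4, was in none of the 6 windows found, those of Slc2a1, Slc3a2, Slc1a4, Slc38a2, Slc16a1 and Slc16a3, and 3.45% of all windows held it. A match is a run of letters and does not show that a factor binds there.

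The order of the 10 levels changed with IL-2. In CTL with IL-2 Slc7a5 came first, with 21.5% ± 0.54 (SD, n = 3) of the summed FPKM, followed by Slc1a5 with 17.5% ± 1.34 and Slc3a2 with 12.97% ± 1.53. From Slc3a2 down to Slc38a1, the FPKM ranges of neighbours in the order overlapped. The shares of Slc3a2, at 11.2% to 13.9%, lay above those of Slc16a3, at 9.97% to 10.8%. Within every library with IL-2, Slc3a2 was above Slc16a3, Slc16a3 above Slc2a1 and Slc38a2 above Slc38a1. Slc2a1 with Slc2a3, and Slc2a3 with Slc38a2, did not keep one order in all libraries. In CTL without IL-2 Slc1a5 came first, at 21.9% ± 1.05, followed by Slc2a3, at 20.2% ± 0.22. Their FPKM ranges overlapped, but their shares did not, at 20.7% to 22.6% and 20.1% to 20.5%. Slc7a5 was seventh in this group, with 6.47% ± 0.97. The share of Slc2a3 was 7.68% ± 1.01 with IL-2, at nearly the same FPKM. Slc1a4 was last in both groups, at 0.540% and 0.221%.

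**Figure D2:**
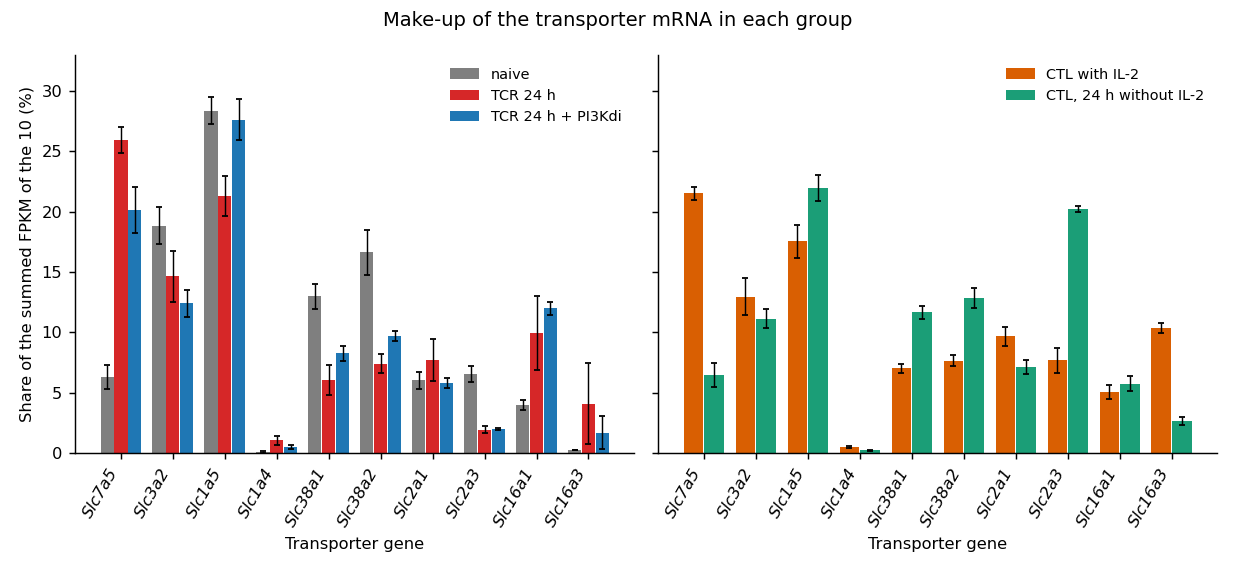
Mean share of each transporter in the summed FPKM of the 10, in percent, for the 3 groups of naive and 24 h activated cells on the left and both CTL groups on the right; error bars are SD over 3 libraries. Without IL-2 the share of Slc7a5 is 6.47% against 21.5%, and that of Slc2a3 is 20.2% against 7.68%.

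Other carriers of the same substrates did not share one direction in CTL. Of 28 other amino acid transporters 15 were in the CTL data, of which 5 were lower and 4 higher without IL-2, and their median log2 fold change was 0.07. The lower ones included the cationic amino acid carriers Slc7a1, from 44.8 ± 6.13 to 9.86 ± 1.64 FPKM (log2 fold change -2.18), and Slc7a3, from 2.56 ± 0.30 to 0.18 ± 0.14 FPKM. They also included the glycine carrier Slc6a9, the aromatic amino acid carrier Slc16a10 and Slc7a11, which was at 0.34 FPKM or less in every library. The higher ones were Slc38a6, the lysosomal arginine sensor Slc38a9, the neutral amino acid carrier Slc6a19 and the system L carrier Slc43a2. Slc6a19 went from 1.35, 0.19 and 0.47 FPKM to 9.27, 7.99 and 10.78 FPKM. Slc43a2, which takes the same kind of substrates as Slc7a5 without a heavy chain, went from 8.35 ± 1.36 to 19.5 ± 0.20 FPKM (log2 fold change 1.23) and so was above Slc7a5 in 2 of the 3 libraries without IL-2. Of 11 other glucose and hexose carriers 3 were in the table, and 2 of them were higher without IL-2, Slc2a8, from 3.92 ± 1.07 to 8.19 ± 1.51 FPKM, and Slc2a9, from 3.24 ± 0.88 to 9.03 ± 0.32 FPKM.

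The listed chaperones of lactate carriers differed in direction. Bsg (basigin), the usual partner of MCT1 and MCT4, was at 215.77, 223.90 and 242.99 FPKM with IL-2. Without IL-2 it was at 116.07, 114.09 and 106.27 FPKM, with a log2 fold change of -1.02 that was called. Emb (embigin) was at 101.25, 88.28 and 80.59 FPKM with IL-2 and at 168.65, 171.93 and 196.04 FPKM without. Its log2 fold change of 0.99 was just under the fold limit. Among other SLC16 genes Slc16a6 was lower, from 48.8 ± 6.90 to 8.99 ± 0.25 FPKM.

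Txnip, an arrestin-domain protein known to draw GLUT1 from the membrane, was higher without IL-2. It went from 138 ± 14.9 to 463 ± 10.2 FPKM (log2 fold change 1.75, adjusted p = 4.9e-07 in limma). Of the 5 arrestin-domain genes listed, Arrdc3 was higher too and the other 3 were not called. Of 18 first enzymes on imported glucose, lactate, glutamine and leucine, 8 were lower and 1 was higher, and the median log2 fold change was -0.63. Hexokinase Hk2, which traps glucose in the cell, fell from 35.4 ± 1.97 to 5.07 ± 1.25 FPKM, lactate dehydrogenase Ldha from 1370.3 ± 56.6 to 424 ± 44.1 FPKM and the leucine aminotransferase Bcat1 from 13.5 ± 2.26 to 0.727 ± 0.19 FPKM.

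Of 8 transcription factors in the table that are known to act on transporter genes, Myc fell from 214 ± 49.3 to 42.4 ± 3.19 FPKM and Atf4 from 202 ± 31.6 to 72.4 ± 5.29 FPKM without IL-2. Foxo1 rose from 15.3 ± 1.48 to 35.4 ± 3.26 FPKM. Hif1a was at 123 ± 14.8 and 70.6 ± 2.47 FPKM, under the fold limit. Of 12 amino acid response genes, those that ATF4 acts on, 8 were lower and 1 higher, and asparagine synthetase Asns was at 48.7 ± 4.49 and 6.99 ± 1.98 FPKM. Of 17 hypoxia response genes, those that HIF-1 acts on, 3 were lower and 2 higher. Of 9 genes that IL-2 is known to act on 7 were lower, among them Cish, from 219.8 ± 21.5 to 19.5 ± 2.81 FPKM, and Il2ra, from 508 ± 56.2 to 98.5 ± 14.3 FPKM.

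In naive cells the order was a different one from that of CTL. Slc1a5 came first, at 86.26, 71.81 and 87.03 FPKM, and made up 28.4% ± 1.12 of the sum of the 10. Slc3a2 followed at 51.80, 52.36 and 58.04 FPKM and was not separated from Slc38a2, at 56.93, 42.23 and 44.72 FPKM. Slc2a3, Slc7a5 and Slc2a1 lay together between 15.57 and 20.88 FPKM, with Slc16a1 below them at 10.70 to 11.65 FPKM. Slc16a3 was at 0.72, 0.61 and 0.70 FPKM and Slc1a4 at 0.10, 0.40 and 0.27 FPKM.

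In 24 h activated cells 7 of the 10 transporters were higher than in naive cells and 0 were lower, where 25.0% of all genes tested were called higher and 23.7% lower. They were the same genes as those called lower in CTL without IL-2. The share of all genes that had both calls was not counted. The sum of the 10 was 304, 264 and 296 FPKM in naive cells and 1149, 706 and 687 FPKM in TCR cells. The median log2 fold change of the 10 was 1.49, against 0.01 over all genes. The summed B cell markers were at 20.9 to 26.3 FPKM in naive cells, 4.63 to 7.12 FPKM in TCR cells and 3.30 to 4.58 FPKM with PI3Kdi. All 3 groups had been sorted on CD8, a gate that B cells do not meet, and the part of these markers in the transporter values was not tested. Without replicate 1 the calls were 5, since Slc3a2 (log2 fold change 0.78) and Slc1a5 (0.96) were then under the fold limit.

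**Figure D3:**
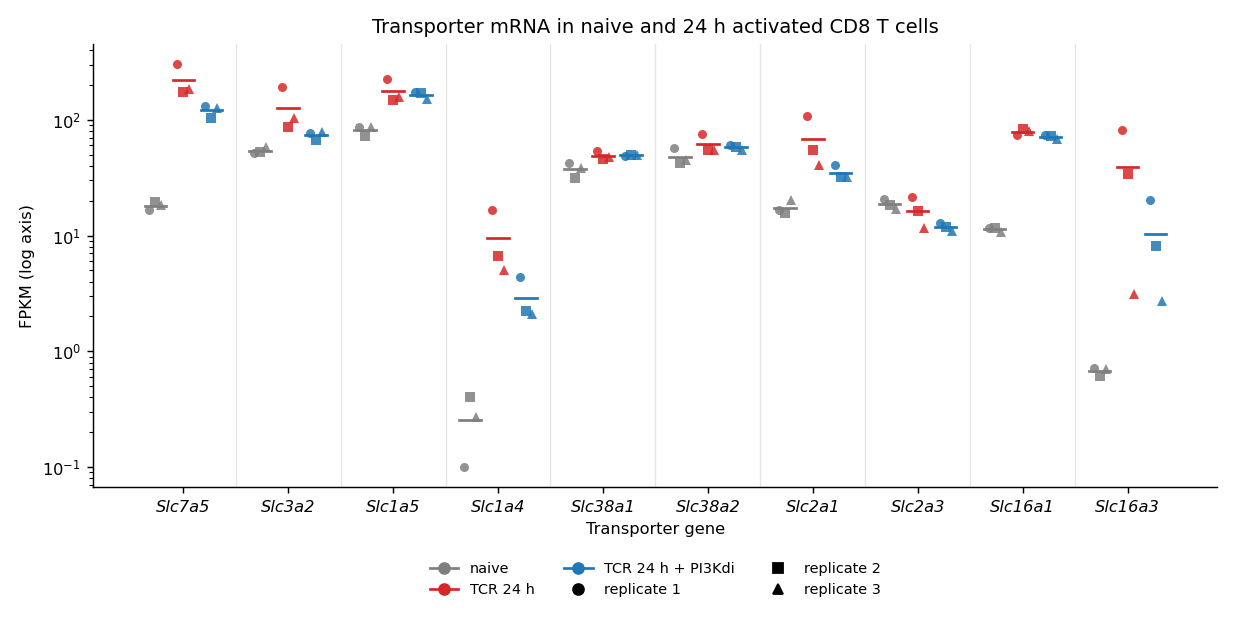
Level of each transporter mRNA in FPKM, on a log axis, in the 3 naive libraries, the 3 libraries activated through the TCR for 24 h and the 3 activated with PI3Kdi. Points are libraries, their shape gives the replicate and lines give group means; Slc16a3 is spread from 3.10 to 81.22 FPKM in TCR cells.

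Slc7a5 rose to 302.62, 174.50 and 183.83 FPKM in TCR cells, with a log2 fold change of 3.56 (SE 0.18, adjusted p = 9.7e-09 in limma). Slc3a2 was at 190.24, 87.45 and 102.95 FPKM (log2 fold change 1.15, standard error 0.22). The ratio of Slc7a5 to Slc3a2 was 0.318, 0.372 and 0.314 in naive cells and 1.59, 2.00 and 1.79 in TCR cells, so that the light chain went from the lesser to the greater of the pair. The exact permutation p was 0.1 (0.17 after adjustment over the 5 pairs).

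Slc16a1 rose with the smallest standard error of the 10. It was at 74.13, 83.63 and 79.26 FPKM in TCR cells, a log2 fold change of 2.79 (SE 0.079, adjusted p = 1.2e-10 in limma). Slc16a3, the related gene, was at 81.22, 33.84 and 3.10 FPKM. Each of these was above every naive library, and they spread over a coefficient of variation of 99.9%. The log2 fold change of 4.74 had a standard error of 0.99 (adjusted p = 0.00093 in limma), and it was 3.79 without replicate 1 and 6.11 without replicate 3. The ratio of Slc16a1 to Slc16a3 was 0.913, 2.47 and 25.6 in TCR cells against 15.3 to 19.1 in naive cells, and these groups overlapped (exact permutation p = 0.4).

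Slc2a1 rose to 108.15, 54.43 and 40.64 FPKM, with a log2 fold change of 1.84 (SE 0.28, adjusted p = 8.3e-05 in limma). Slc2a3 was at 21.56, 16.26 and 11.51 FPKM against 17.03 to 20.88 FPKM in naive cells, and its log2 fold change of -0.23 had a 95% interval of -0.65 to 0.18. The ratio of Slc2a1 to Slc2a3 was 0.789, 0.844 and 1.18 in naive cells and 5.02, 3.35 and 3.53 in TCR cells (exact permutation p = 0.1, adjusted 0.17).

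Slc1a5 rose to 226.31, 149.37 and 157.74 FPKM (log2 fold change 1.10, standard error 0.15). Slc1a4 was at 16.78, 6.64 and 5.01 FPKM (log2 fold change 4.65, standard error 0.46, adjusted p = 2.4e-06 in limma), and at 3.77 on the log2 scale without replicate 1. Its naive values rest on few reads, an estimated 4.91, 20.7 and 12.8, and the log2 fold change was 2.90 with a pseudocount of 1. The log2 ratio of Slc1a5 to Slc1a4 differed by -4.12 from naive cells, and by -1.81 with that pseudocount. Slc38a1 was at 53.33, 45.82 and 47.98 FPKM and Slc38a2 at 75.02, 54.44 and 54.73 FPKM, with log2 fold changes of 0.39 and 0.35, below the fold limit. Their ratio was 0.711 to 0.877 in TCR cells and 0.743 to 0.864 in naive cells.

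**Figure D4:**
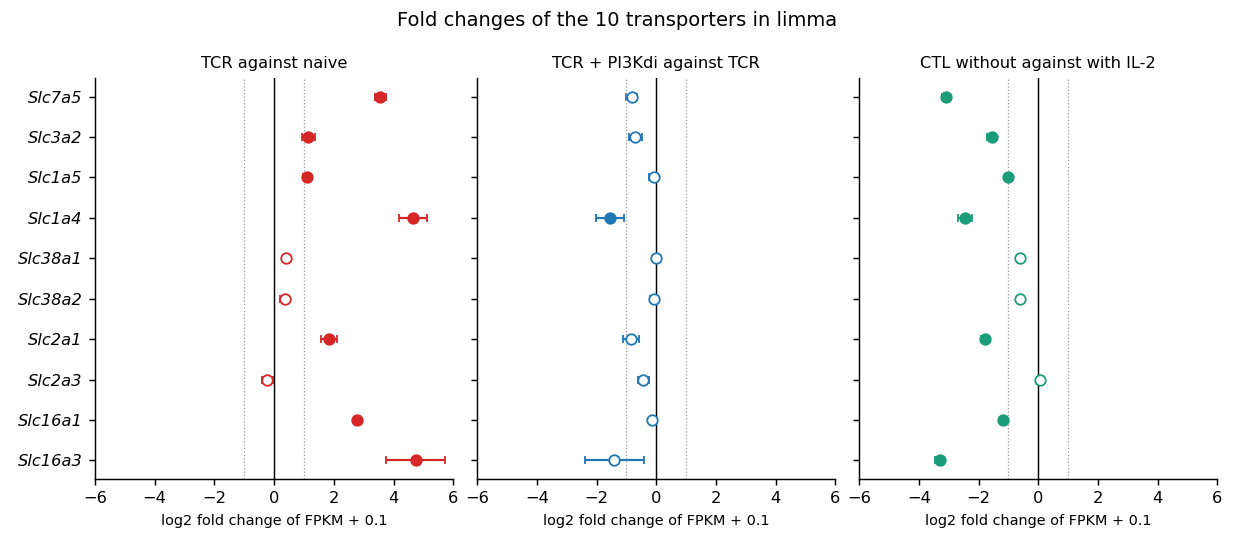
Log2 fold change of FPKM + 0.1 for each transporter in 3 comparisons, with the standard error from limma as bars over 3 libraries a group. Filled points passed both limits, open points did not, and dotted lines mark the fold limit of 2 in each direction; 7 genes are filled in the first and in the last panel, and Slc1a4 alone in the middle one.

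Replicate 1 stood above the others among the TCR cells. It was the highest of the 3 for 9 of the 10 transporters, all but Slc16a1, where 37.7% of the 10072 genes with a mean of at least 1 FPKM were highest in it. It was also highest for 15 of 16 hypoxia response genes, whose summed level was 408, 312 and 201 FPKM in replicates 1, 2 and 3, and for 9 of 11 amino acid response genes. With PI3Kdi replicate 1 was the highest for 8 of the 10 transporters, where 32.1% of the 10072 genes were highest in it. It was also the highest there for 14 of the 16 hypoxia response genes, at sums of 265, 234 and 182 FPKM. The part of what sets replicate 1 apart in the transporter values was not tested.

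The other listed genes gave these counts in TCR cells against naive cells. Of 15 other amino acid transporters 5 were higher and 6 lower. The higher ones included Slc7a1, from 13.5 ± 0.56 to 58.2 ± 12.5 FPKM, and the system L carrier Slc43a1, and the lower ones included Slc43a2, from 25.2 ± 1.66 to 3.23 ± 0.20 FPKM. Txnip fell from 310.9 ± 20.7 to 22.9 ± 2.79 FPKM, with Arrdc1 and Arrdc3 lower as well. Bsg rose from 71.3 ± 3.79 to 255 ± 69.1 FPKM, and Emb was at 127.5 ± 5.99 and 92.0 ± 3.05 FPKM, under the fold limit. Of the 18 first enzymes 9 were higher and 1 lower, with Hk2 at 0.377 ± 0.17 and 121.8 ± 1.52 FPKM. Of the transcription factors Myc, Hif1a and Atf4 were higher and Foxo1 lower. Of 11 amino acid response genes 7 were higher and 2 lower, and of 16 hypoxia response genes 6 were higher and 3 lower.

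Whether the rise in transporter mRNA passes through p110 delta was asked by comparing TCR cells with and without PI3Kdi. Only Slc1a4 of the 10 was called lower and 0 were called higher, where 2.10% of all genes tested were called lower and 3.04% higher. The sum of the 10 was 644, 574 and 578 FPKM with PI3Kdi, a mean 0.706 times that of TCR cells and 0.827 times without replicate 1. Slc1a4 was at 4.39, 2.24 and 2.10 FPKM with PI3Kdi against 5.01 to 16.78 FPKM without it, and was lower within all 3 pools. Its log2 fold change of -1.55 (SE 0.46, adjusted p = 0.041 in limma) lost its call without replicate 2 (adjusted p = 0.21) and without replicate 3 (adjusted p = 0.087). It was not called either with a pseudocount of 0.01, without the intensity trend or with only these 2 groups fitted.

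Slc1a4 was 1 of 5 transporters with every PI3Kdi library below every TCR library, which held for 18.6% of all genes tested. The other 4 were not called. Slc7a5 was at 132.41, 103.89 and 125.93 FPKM in the PI3Kdi group. Its log2 fold change was -0.83 (SE 0.18, adjusted p = 0.011 in limma), which missed the fold limit only. Slc3a2 was at 76.45, 66.93 and 78.83 FPKM (log2 fold change -0.69, adjusted p = 0.054 in limma) and Slc2a1 at 40.51, 31.76 and 32.00 FPKM (-0.84, adjusted p = 0.061 in limma). Without replicate 3 Slc2a1 had a log2 fold change of -1.09 and was called. Slc16a1 was at 73.72, 72.18 and 68.83 FPKM, a log2 fold change of -0.14 with a 95% interval of -0.31 to 0.03.

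Slc16a3 was at 20.37, 8.08 and 2.72 FPKM with PI3Kdi, and the libraries overlapped with those of TCR cells. Within pools, the ratio to TCR cells was 0.251, 0.239 and 0.877. The log2 fold change was -1.41 (95% interval -3.59 to 0.77, adjusted p = 0.37 in limma), and without replicate 3 it was -2.02 and called. Slc2a3 was at 12.71, 11.80 and 10.87 FPKM (log2 fold change -0.43, 95% interval -0.85 to -0.02, adjusted p = 0.14 in limma). Slc1a5 at 173.83, 169.64 and 152.15 FPKM, Slc38a1 at 48.70, 49.57 and 49.42 FPKM and Slc38a2 at 61.06, 58.22 and 54.66 FPKM had log2 fold changes of -0.08, 0.01 and -0.07. Their 95% intervals ran from -0.40 to 0.24, from -0.23 to 0.25 and from -0.38 to 0.24.

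The system L ratio was nearly the same with the inhibitor, at 1.73, 1.55 and 1.60, as in TCR cells, and these groups overlapped (exact permutation p = 0.3). The ratio of Slc2a1 to Slc2a3 was 3.19, 2.69 and 2.94 with PI3Kdi, below every TCR library, and that of Slc1a5 to Slc1a4 was 39.6, 75.7 and 72.5, above every TCR library (exact permutation p = 0.1 for each, adjusted 0.25 over the 5 pairs). Of the listed genes, 0 of 15 other amino acid transporters were called. Bcat1 was lower, at 28.0 ± 1.90 and 12.6 ± 1.13 FPKM, as were the hexose carrier Slc2a6 and 4 of 11 amino acid response genes (Chac1, Trib3, Sesn2 and Atf3). Hif1a mRNA was higher, at 125 ± 33.3 and 271 ± 52.2 FPKM. Of 16 hypoxia response genes 2 were lower (Ankrd37 and Ndrg1), 0 were higher and 14 were not called.

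Against naive cells, cells activated with PI3Kdi had 5 of the 10 called higher and 0 lower, where 23.6% of all genes tested were called higher. These were Slc16a1 (log2 fold change 2.65), Slc16a3 (3.33), Slc1a4 (3.10), Slc7a5 (2.73) and Slc1a5 (1.02). Slc2a1, at a log2 fold change of 0.99, was just under the fold limit, and Slc3a2 was at 0.45 (adjusted p = 0.083 in limma). Slc2a3 was below naive cells in all 3 pools, at a log2 fold change of -0.66 (adjusted p = 0.0068 in limma) that did not reach the fold limit. Without replicate 2, Slc1a5 (0.91) and Slc16a3 (adjusted p = 0.074) were not called. Slc16a3 had a log2 fold change of 2.67 without replicate 1 and 4.08 without replicate 3, and Slc1a4 had 2.40 without replicate 1. This comparison shares its PI3Kdi libraries with the one above and its naive libraries with the one before.

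**Figure D5:**
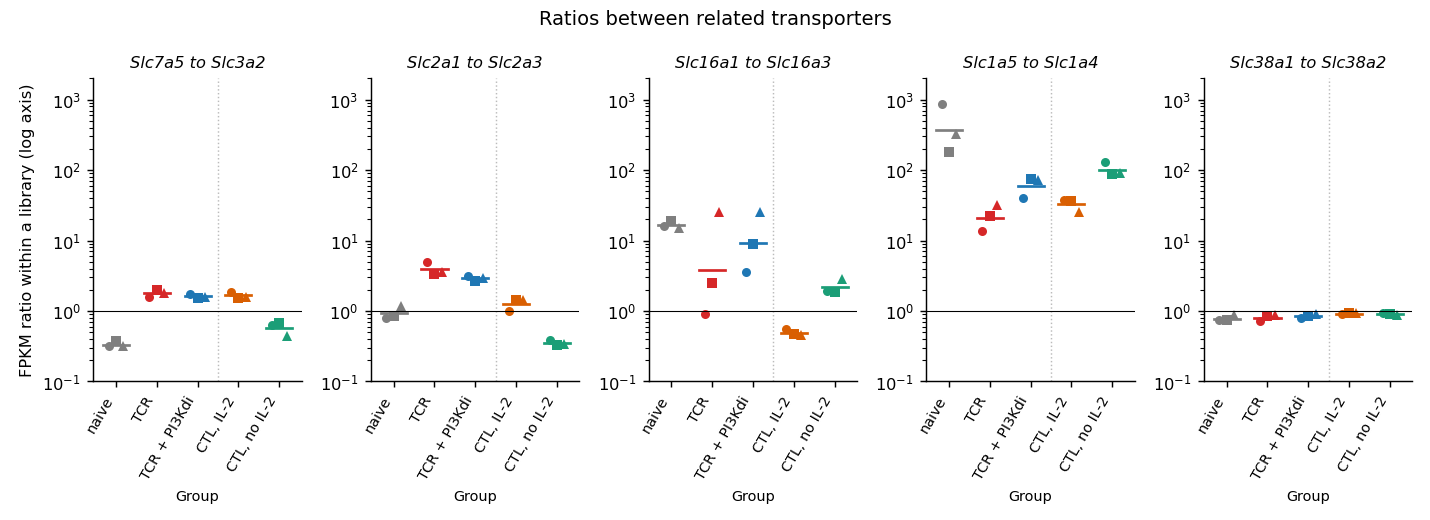
Ratio of the FPKM of related transporters within each library, on a log axis, in the 5 groups; points are libraries, their shape gives the replicate as in the plots of levels (circle 1, square 2, triangle 3) and lines give geometric means over 3 libraries. The dotted line parts the tables, which were normalised separately. The Slc38a1 to Slc38a2 ratio stays between 0.711 and 0.929 in all 15 libraries, while the Slc1a5 to Slc1a4 ratio runs from 13.5 to 863. The 863 is of naive replicate 1, where Slc1a4 was at 0.10 FPKM and rested on few reads.

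The tables were normalised separately, so levels in CTL and in naive or 24 h activated cells are set side by side here without a test. In CTL without IL-2 Slc7a5 (13.92 to 20.22 FPKM) and Slc2a1 (18.03 to 20.91 FPKM) were at levels like those of naive cells (16.47 to 19.50 and 15.57 to 20.13 FPKM). Slc3a2, Slc1a5, Slc38a1 and Slc38a2 had lower means there than in naive cells, at 29.9 and 54.1 FPKM, 59.1 and 81.7 FPKM, 31.3 and 37.5 FPKM, and 34.5 and 48.0 FPKM. The other 4 had higher means there, at 7.17 and 0.677 FPKM for Slc16a3, 54.4 and 18.8 FPKM for Slc2a3, 15.4 and 11.3 FPKM for Slc16a1, and 0.597 and 0.257 FPKM for Slc1a4. Slc2a3 was at 46.82 to 57.27 FPKM in all 6 CTL libraries and at 10.87 to 21.56 FPKM in the 9 others. Slc16a1 had a mean of 79.0 FPKM in TCR cells and of 35.0 FPKM in CTL with IL-2.

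By root mean square difference between centred log2 profiles, the genes most like each transporter were sought over the 6 CTL libraries and, apart from these, over the 9 others. In CTL, Slc38a2 was the second most like Slc38a1 of 10263 genes with a mean of at least 1 FPKM (difference 0.021), after Pdxdc1 (0.014). For Slc38a2 the first was Slc38a1. Slc7a5 and Slc16a3 both had Fdps, an enzyme of isoprenoid and cholesterol synthesis, as the nearest gene (0.065 and 0.083), and Slc16a3 was the second nearest to Slc7a5 (0.12). In the other 9 libraries the nearest gene to Slc7a5 was Psat1, of serine synthesis (0.22), followed by Mthfd2, of one-carbon metabolism. For Slc3a2, 6720401G13Rik came first and Atf4 second (both 0.19). Slc2a1 had Gm129 (0.16) and Sc4mol (0.20) ahead of Bsg (0.21). Slc1a4 had Slc4a11 (0.41) and Dusp4 (0.42) ahead of Slc6a9 (0.42). Slc16a3 had Timp1 and Vegfa as its nearest, at the larger differences of 0.71 and 0.77.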

How the data were processed

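mRNA of 15 libraries was measured by paired-end sequencing (75 bp, a stranded mRNA kit). Per the labels and the study's methods, the authors aligned reads to mm10 with STAR 2.5.2b, counted them per RefSeq gene with Subread 1.5.1, removed low-count genes, normalised by TMM in edgeR and deposited FPKM over summed exon length, rounded to 2 decimals. The steps for the CTL table are assumed to be the same, and use of strand in counting was not given in the sources used here. GENCODE places Gm20388 on the other strand over Slc7a5, 2 antisense genes over Slc2a1 and the pseudogene Gm4482 over Slc2a3, whose reads may not have been told apart. Blank cells were read as 0. The FPKM carry no read totals; the spacing of low values gave rough estimates of depth only, from 9.57e+06 to 1.46e+07 reads per library.

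Each table was fitted apart in limma 3.58.1 (R 4.3.3) on log2(FPKM + 0.1) with an intensity trend, all groups of the table sharing 1 estimate of the spread, and p-values were Benjamini-Hochberg adjusted over all its genes. Fold changes are on that scale and understate those of low genes. The study used limma on counts; counts were not used here. The fits were also run on simulated data with 200 changed genes in a table, whose outcome is not given here. Ratios within a library were compared by exact two-sided permutation tests (scipy 1.17.1). All 10 transporters are named, and other genes only from lists of transporters, chaperones, enzymes, regulators and response genes, and by likeness of profile; the members and lists were chosen with earlier results of these data known. Replicate numbers pair the samples: each pool was divided between the naive, TCR and PI3Kdi conditions. In CTL same-numbered libraries deviated together (r of 0.123 to 0.257 over 10263 genes), against -0.201 to 0.0912 for unlike numbers. Same-numbered PI3Kdi and TCR libraries gave r of 0.203 to 0.506 over 10072 genes. Against naive libraries the pairing did not show, at -0.181 to 0.226 for TCR and -0.0171 to 0.0303 for PI3Kdi. No label says whether CTL replicates came from separate mice, so their p-values cover the spread between these samples only. Alternatives were pseudocounts of 0.01 and 1, a filter at a mean of 1 FPKM, no intensity trend, median scaling, other fold limits, fits of only the groups compared, the replicate block and leaving out each replicate.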

Additional observations from a re-analysis of the deposited data

How the results depend on the processing

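The number of the 10 transporters called stayed at 6 to 9 for IL-2 withdrawal and at 5 to 9 for TCR against naive cells over all alternatives run. For PI3Kdi against TCR cells it was 0 with a pseudocount of 0.01, without the intensity trend and with only those 2 groups fitted, 2 with a fold limit of 1.5 or none, and 0 to 2 when a replicate was left out. For PI3Kdi against naive cells it was 8 with no fold limit and 3 to 6 when a replicate was left out. Median scaling of the libraries took the call from Slc1a5 in CTL and gave one to Slc2a1 for PI3Kdi against naive cells. It moved the median of all genes by less than 0.1 on the log2 scale. With the replicate block, 7 transporters were called for TCR against naive cells, 1 for PI3Kdi against TCR cells, 5 for PI3Kdi against naive cells and 7 for IL-2 withdrawal, and it changed no call of a transporter. Leaving out a replicate turned the sign of values near 0 that were not called. Slc2a3 in CTL ranged from -0.071 to 0.12, and for PI3Kdi against TCR cells Slc1a5 ranged from -0.22 to 0.066, Slc38a1 from -0.044 to 0.078 and Slc38a2 from -0.15 to 0.047. The log2 ratio of Slc38a1 to Slc38a2 differed by -0.025 to 0.0997 between TCR and naive cells and by -0.039 to 0.0071 in CTL. The causes were not tested.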
